A study of Mus musculus with 18 samples.

Results

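Cd59a, Cd55, Cr1l, Cd47 and Cd36 encode surface proteins by which red cells and their precursors meet complement, phagocytes and lipids. These 5 genes were chosen by symbol from the 23365 rows of a deposited count table, with Cd36 and Cd59a selected on their fold changes in earlier results for the D45/KO genotype and the others added for their role. All 5 were among the 13405 genes that passed the filter on low counts, with 95 to 26041 counts in any library. RNA had been sequenced from mouse spleen erythroblasts, cells gated on CD71 (which imports transferrin iron) and on the red cell antigen TER119, in 18 libraries of 5 Klf1 genotypes. Klf1 is a transcription factor gene of the red cell lineage. The genotypes combined a wild-type allele (WT), a knockout allele (KO) and the MommeD45 allele (D45), as WT/WT (3 libraries), WT/D45 (3), D45/D45 (3), WT/KO (5) and D45/KO (4). The D45/KO and D45/D45 mice had no wild-type allele, and the submitters describe compound heterozygotes as having haemolytic anaemia with an enlarged spleen. Age, sex and the part of the gene removed in the KO allele are not given in the sources used here.

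Complement deposits on any cell that does not stop it, and a red cell has no nucleus with which to renew its defences. CD59 blocks assembly of the membrane attack pore, CD55 (decay-accelerating factor) takes apart the C3 convertases, and Crry, the product of Cr1l, is a rodent regulator that also acts on C3 convertases. CD59 and CD55 are held in the membrane by a glycosylphosphatidylinositol (GPI) anchor. CD47 binds SIRPα on macrophages and restrains their phagocytosis, while CD36 is a scavenger receptor for fatty acids, oxidised lipoproteins and thrombospondin that is found on erythroid precursors, platelets and macrophages.

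The sequence just before each gene's start is shown because KLF1 binds CACCC elements and the 5 genes differ in whether one lies there. Each is the 30 bases before the start listed by RefSeq (GRCm38.p6), 5′ to 3′ on the gene's strand, with matches to CCNCNCCC on either strand in capitals. The windows are chr2:104095771-104095800 (plus strand) for Cd59a, chr1:130462745-130462774 (minus) for Cd55, chr1:195131571-195131600 (minus) for Cr1l, chr16:49855624-49855653 (plus) for Cd47 and chr5:17835897-17835926 (minus) for Cd36.
Cd59a: cccaggGGGTGTGGtggGGGTGTGGccatc
Cd55: cccagggtgacgagggccctgCCCCGCCCc
Cr1l: aaggccgggctatatgcaaaccgagttccc
Cd47: cggggcggcgagcacgcgcgcgcgcgcacc
Cd36: aaaaaaaaaaaaaaaagactgctgagtatt
Cd59a held 2 copies of CCACACCC, which is a form of CCNCNCCC, on the reverse strand, at bases 24 to 17 and 13 to 6 before its start. At least 2 copies occurred in the 250 bases before the start of 0.140% of 32851 promoters and at least 1 copy in 3.20%. Cd55 held 3 matches to CCNCNCCC in its 250 bases, a motif present in 45.9% of promoters and at least 3 times in 16.7%. Cr1l, Cd47 and Cd36 held neither motif there. The RefSeq spans of Cd59a, Cd36, Cd47 and Cd55 reach further upstream, so for these genes the listed start is not the outermost one. The span of Cd36 ends at base 17888959 of chr5. For Cd59a the span begins at base 104095753 of chr2, so its 30 printed bases, with both CCACACCC copies, lie inside it. Other starts were not searched. AGATAA and TGATAA, forms of the element bound by GATA factors, were searched on both strands and were found in none of the 5 windows, against 16.6% of promoters. These matches describe letters, not binding.

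Klf1 transcripts were present in every library, at 158 to 1576 CPM (counts in every 1000000, scaled by TMM-adjusted library size). Klf1 had 158, 191, 230, 659 and 834 CPM in WT/KO and 452, 964 and 1047 CPM in WT/WT, so these genotypes overlapped, and transcripts of the D45 allele cannot be told from wild type in these counts. The labelled cell type was borne out by the 10 tested of 12 listed erythroid markers, whose mean log2 CPM was 9.58 to 12.4. Tfrc (the gene of CD71) was at 711 to 4641 CPM. Hbb-b1 (an adult beta globin), the most abundant of the listed erythroid markers, was at 13994 to 639423 CPM. Of the other listed markers, Hba-a1 (an adult alpha globin) did not pass the filter and Ahsp had no row, for reasons not examined. Libraries held 9.36 to 56.3 M counts (M, 1000000 counts). They fell into 9 with high and 9 with low levels of 13 B cell markers, with Cd74 as the most abundant marker and a summed level of 402 to 3812 CPM in the high and 23.1 to 173 CPM in the low libraries. The high libraries were replicates 1 to 3 of D45/KO, replicates 1 to 3 of WT/KO and replicate 1 of each other genotype. Tfrc was lower in the high libraries, with a median of 1421 against 3543 CPM, and Hbb-b1 ran from 13994 to 57463 CPM in the high and from 61542 to 639423 CPM in the low ones. Results are therefore also given within each set. In the high set Klf1 ran from 158 to 230 CPM in WT/KO (3 libraries), beside 452 CPM in WT/WT (1 library). In the low set it ran from 659 to 834 CPM, beside 964 to 1047 CPM (2 libraries each), so these genotypes overlapped only across the sets.

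Cd59a was lowest in D45/KO. Its levels were 21.3, 16.7, 20.8 and 21.9 CPM in D45/KO, a mean of 20.2 ± 2.38 CPM (SD, n = 4). In D45/D45 they were 25.8, 32.1 and 63.6 CPM (40.5 ± 20.3, SD, n = 3). All 4 D45/KO libraries lay below all 3 D45/D45 libraries, and they clustered within a narrow band whether high or low in B cell markers. In WT/KO Cd59a had 30.9, 45.3, 28.7, 95.5 and 73.5 CPM (54.8 ± 28.9, SD, n = 5). In WT/D45 it had 41.2, 71.9 and 79.2 CPM (64.1 ± 20.1, SD, n = 3), and in WT/WT 27.4, 109 and 168 CPM (101 ± 70.6, SD, n = 3). The low value of each of these 3 genotypes came from libraries high in B cell markers, and neighbours in this order from D45/D45 upward overlapped. In bulk RNA, fewer cells of a type and less RNA per cell cannot be told apart.

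**Figure D1:**
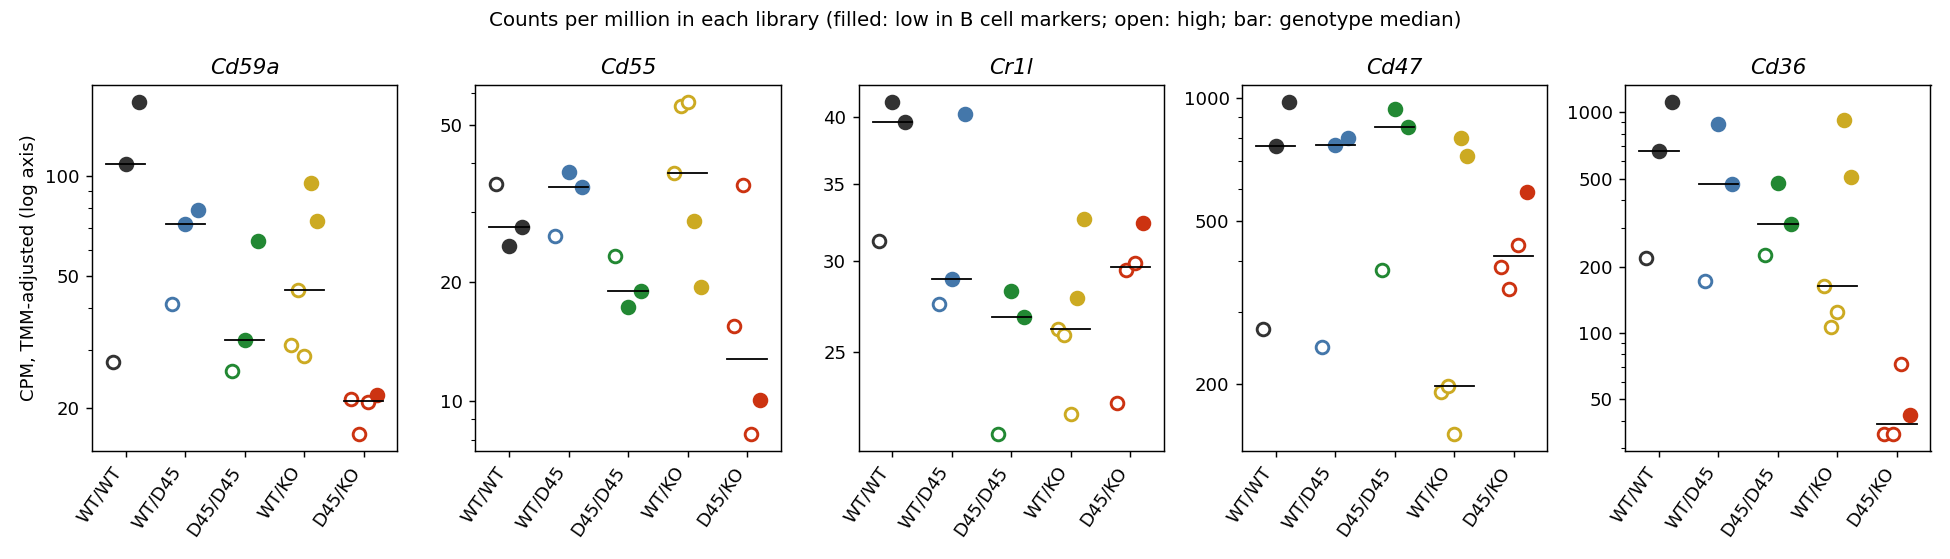
Level of each gene in CPM (log axis, its range differing between panels) for the 18 libraries by genotype; filled points are libraries low and open points libraries high in B cell markers, and bars are genotype medians. All 4 D45/KO points of Cd36 (34.8 to 72.7 CPM) and Cd59a (16.7 to 21.9 CPM) sit below every point of the other genotypes, while neighbouring genotypes overlap for Cr1l and Cd47.

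The Cd59a difference in D45/KO was a log2 fold change of -2.33 ± 0.52 (SE) from WT/WT and -1.44 ± 0.47 from WT/KO in the edgeR fit to all libraries. These contrasts were in view when the genes were chosen, so they are given as a description. Within the libraries high in B cell markers the mean was 19.6 CPM for D45/KO against 34.99 CPM for WT/KO (3 libraries each), and within the low ones it was 21.9 CPM (1 library) and 84.5 CPM (2 libraries). Against WT/WT the means were 19.6 against 27.4 CPM in the high set and 21.9 against 138 CPM in the low set, with fitted log2 fold changes of -0.54 and -2.65. The direction was thus the same in both sets but the size was not. Against D45/D45 the log2 fold change was -1.01 ± 0.51, with an adjusted p of 1 (edgeR's quasi-likelihood test with Benjamini-Hochberg adjustment, here and below). D45/D45 itself stood at -1.32 ± 0.56 from WT/WT (adjusted p = 1), WT/KO at -0.89 ± 0.48 (adjusted p = 0.818) and WT/D45 at -0.66 ± 0.55 (adjusted p = 1). All 3 of these comparisons share the WT/WT libraries, none passed the threshold of 0.05, and the WT/D45 difference was 0.60 in place of -0.66 among the libraries high in B cell markers and 0.08 with library totals in place of TMM.

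Setting Cd59a against another erythroid transcript of the same library removes the library scaling and any RNA that carries neither gene, though Cd47 is also made outside the red cell lineage. Counts of Cd59a came to 3.71% to 5.50% of those of Cd47 in D45/KO and to 6.79%, 3.42% and 7.49% in D45/D45. They came to 9.35% to 16.8% in WT/D45, 10.05% to 17.2% in WT/WT and 10.2% to 22.9% in WT/KO. All 7 libraries with no wild-type Klf1 allele therefore lay below all 11 libraries with one, at 3.42% to 7.49% against 9.35% to 22.9%. The same separation was seen over Tfrc (0.737% to 1.61% against 1.86% to 4.89%). By Cd59a CPM these groups overlapped, with D45/D45 replicate 3 at 63.6 CPM above WT/WT replicate 1 at 27.4 CPM. The denominators differed too. High-set WT/KO libraries averaged 180 CPM of Cd47, less than the 388 CPM of high-set D45/KO. Tfrc, at 711 to 1097 CPM in these WT/KO libraries, lay below the 1896 to 2396 CPM of those D45/KO libraries. In the low set both denominators were higher in WT/KO. How far the denominators made this separation was not tested. Of all genes tested, Cd59a among them, 0.313% lay lower in all 7 libraries over Cd47 and 0.172% over Tfrc. These shares are counts of reads not divided by transcript length, so they compare libraries and not the levels of 2 genes, and the ratio was chosen after the values had been seen and carries no test.

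Cd59b, the close copy of Cd59a, was low, at 1.21 to 5.999 CPM in all 18 libraries. Of 50-base windows of annotated Cd59a transcripts, 3.87% occur unchanged in Cd59b, so few reads could be split between the copies. Genes of the anchor itself were read in D45/KO against WT/WT. Of 29 tested genes for GPI anchor synthesis and attachment, 17 lay above 0 and 12 below, with a median log2 fold change of 0.20 beside 0.07 for all genes tested, and 0 passed edgeR's test at an adjusted p under 0.05 (0 also at an unadjusted p under 0.05). Without WT/WT replicate 2 the median was -0.07, with 14 above 0. Piga, which starts anchor synthesis, stood at -0.74, Pigp of the same enzyme complex at 0.70 and Gpaa1, a subunit of the transamidase that attaches the anchor, at 0.38.

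Cd55 had its lowest means in the 2 genotypes with no wild-type allele. Its levels were 15.5, 35.2, 8.26 and 10.1 CPM in D45/KO (17.3 ± 12.4, SD, n = 4) and 23.2, 17.3 and 19.0 CPM in D45/D45 (19.8 ± 3.06, SD, n = 3). In WT/WT they were 35.5, 24.6 and 27.5 CPM (29.2 ± 5.62, SD, n = 3). D45/D45 lay below WT/WT in every library, while D45/KO replicate 2 came close to the highest WT/WT value and the other 3 D45/KO libraries lay below all of WT/WT. Cd55 had 26.2, 38.0 and 34.9 CPM in WT/D45 (33.02 ± 6.14, SD, n = 3) and 37.6, 55.7, 57.1, 28.6 and 19.5 CPM in WT/KO (39.7 ± 16.6, SD, n = 5). The 3 highest WT/KO libraries were those high in B cell markers, and over all libraries the median was 35.2 CPM in the high and 24.6 CPM in the low set, the reverse of Cd59a, Cr1l, Cd47 and Cd36. How much of the Cd55 RNA came from B cells was not tested.

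The log2 fold change of Cd55 was -0.76 ± 0.45 in D45/KO against WT/WT and -1.20 ± 0.40 against WT/KO, given as description. Within the libraries high in B cell markers D45/KO and WT/KO averaged 19.7 and 50.2 CPM, and within the low ones 10.1 and 24.0 CPM, the same direction in both. The high set was not even in B cell markers, whose mean log2 CPM was 3.68 to 5.67 in its D45/KO and 6.77 to 6.92 in its WT/KO libraries (Cd79a at a mean of 43.4 and 207 CPM). All 13 B cell markers lay below 0 in D45/KO against WT/KO, with a median of -1.82. Within D45/KO Cd55 was highest in the library richest in them (replicate 2) and lowest in replicate 3, the poorest of the high set. Replicate 4, of the low set, had more Cd55 (10.1 CPM) than replicate 3 (8.26 CPM). Replicate 2 also had the most C1qa, a macrophage product, of the D45/KO libraries (321 CPM). The part of B cells or macrophages in the Cd55 difference was not tested. D45/D45 stood at -0.56 ± 0.48 from WT/WT and D45/KO at -0.20 ± 0.45 from D45/D45 (adjusted p = 1 for both), the latter turning to 0.11 without D45/KO replicate 3 and to 0.16 with library totals. WT/KO stood at 0.44 ± 0.44 (adjusted p = 0.818) and WT/D45 at 0.18 ± 0.48 (adjusted p = 1) from WT/WT. Both signs turned within one set of libraries, to -0.17 for WT/KO in the low set and -0.43 for WT/D45 in the high set. The second copy, listed as Daf2 in the deposited table, had 0 to 4 counts and did not pass the filter.

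Cr1l varied least of the 5 genes, over a 1.95-fold range. It had 22.5, 29.5, 29.8 and 32.4 CPM in D45/KO, 21.2, 28.2 and 26.8 CPM in D45/D45 and 26.1, 25.8, 22.1, 27.9 and 32.6 CPM in WT/KO. In WT/D45 it had 27.5, 28.9 and 40.2 CPM and in WT/WT 31.2, 41.3 and 39.6 CPM. Every genotype overlapped its neighbour in the order of means, from D45/D45 (25.4 ± 3.72, SD, n = 3) through WT/KO (26.9 ± 3.81, n = 5), D45/KO (28.5 ± 4.21, n = 4) and WT/D45 (32.2 ± 6.97, n = 3) to WT/WT (37.4 ± 5.41, n = 3). D45/D45 lay below WT/WT in every library, with a log2 fold change of -0.56 ± 0.25 (adjusted p = 1). Genes lower in every D45/D45 library made up 3.65% of all tested, and Cd55 was the other of the 5 genes in that position. Cr1l stood at -0.47 ± 0.22 in WT/KO (adjusted p = 0.818) and -0.39 ± 0.24 in D45/KO against WT/WT, and at 0.09 ± 0.21 in D45/KO against WT/KO. The first of these turned to 0.06 and the second to 0.07 with library totals, and the third to -0.02 with the size factors of DESeq2.

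Cd47 followed the B cell markers more than the genotype. Its levels were 273, 763 and 980 CPM in WT/WT (672 ± 362, SD, n = 3), 246, 769 and 801 CPM in WT/D45 (605 ± 311, SD, n = 3) and 379, 939 and 849 CPM in D45/D45 (722 ± 300, SD, n = 3). They were 191, 198, 151, 797 and 722 CPM in WT/KO (412 ± 319, SD, n = 5) and 387, 342, 436 and 590 CPM in D45/KO (439 ± 108, SD, n = 4). Every library high in B cell markers (151 to 436 CPM) lay below every low one (590 to 980 CPM), and all neighbouring genotypes overlapped. This split accounted for 80.1% of the variance of log2 CPM among libraries and genotype for 21.4%, 2 shares that overlap because WT/KO and D45/KO hold more of the high libraries. For Cd36 the shares were 45.3% and 67.5%, and for Cd59a 49.4% and 52.3%.

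No comparison gave a call for Cd47 in the fit to all libraries. Its log2 fold change was -0.62 ± 0.63 in D45/KO against WT/WT, 0.09 ± 0.56 against WT/KO and -0.72 ± 0.63 against D45/D45. D45/KO and WT/KO differed in opposite directions in the 2 sets, at 388 against 180 CPM in the high set (3 libraries each) and 590 against 760 CPM in the low set (1 and 2 libraries). Fitted alone, the high set gave Cd47 a log2 fold change of 1.15 and the low set -0.32. Within the high set the B cell markers were lower in D45/KO than in WT/KO, with Cd79a at a mean of 43.4 CPM against 207 CPM, and their part in this Cd47 difference was not tested. SIRPα, the receptor of CD47, is made by macrophages, and Sirpa stood at 1.43 ± 1.06 in D45/KO against WT/WT, not called. Of 8 tested partners of CD47 in the red cell membrane, 3 lay above and 5 below 0 with a median of -0.34 and 0 called (0 at an unadjusted p under 0.05): Rhag at 0.06 and Rhd at -1.07 (the Rh complex), Slc4a1 (band 3) at -0.59 and Epb4.2 (protein 4.2) at -0.30. Without WT/WT replicate 3 the median of these partners turned to 0.17, with 5 above 0.

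Cd36 showed the widest range of the 5 genes, from 34.8 to 1118 CPM, 32.1-fold. In D45/KO it had 34.8, 34.98, 72.7 and 42.5 CPM (46.3 ± 18, SD, n = 4). In D45/D45 it had 227, 477 and 313 CPM (339 ± 127, SD, n = 3). The D45/KO values lay far below, by 2.30 times the larger SD of these neighbours, and the other genotypes followed with overlap. WT/KO had 162.5, 106, 124, 926 and 509 CPM (366 ± 354, SD, n = 5), WT/D45 172, 889 and 472 CPM (511 ± 360, SD, n = 3) and WT/WT 219, 666 and 1118 CPM (668 ± 449, SD, n = 3). The lowest library of any other genotype, WT/KO replicate 2 at 106 CPM, was above the highest D45/KO library at 72.7 CPM.

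The log2 fold change of Cd36 in D45/KO was -3.85 ± 0.78 from WT/WT and -2.98 ± 0.72 from WT/KO, given as description. Among the 5 genes Cd36 alone was called in the first of these, where 0.619% of all genes were called (48 lower and 35 higher), and none in the second, where 0.172% were (23 genes, of which 15 were higher). Groups did not overlap for Cd36 and Cd59a in both, lower in D45/KO, as for 3.55% and 0.925% of all genes. The Cd36 call against WT/WT was lost when any of the 4 D45/KO libraries or WT/WT replicate 2 or 3 was left out, with log2 fold changes of -4.27 to -3.26 over all 7 omissions, and Cd59a was called beside it without WT/WT replicate 1. Where a set holds 1 library of a genotype, a fit within it assumes that this library varies like the others.

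Within both sets Cd36 kept its direction. In the high set it averaged 47.5 CPM in D45/KO, 131 CPM in WT/KO, 219 CPM in WT/WT and 227 CPM in D45/D45. In the low set the single D45/KO library had 42.5 CPM, against 718 CPM in WT/KO, 892 CPM in WT/WT and 395 CPM in D45/D45. D45/KO was thus lowest in either set. Its low-set value lay inside the range of its high-set libraries, whereas in each of the other genotypes every high-set library had less Cd36 than every low-set one. Against D45/D45, a comparison not used in choosing the genes as far as the sources show, the log2 fold change was -2.87 ± 0.76 and the adjusted p was 1. D45/KO is on one side of it as in the contrasts that chose Cd36, so it is no independent evidence. In that comparison 0.00746% of genes (1 gene) were called, and Cd36 and Cd59a were lower in every library, as were 2.29% of all genes. Both D45/KO and D45/D45 lack a wild-type allele, so here the KO allele stands in place of a second D45 allele.

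**Figure D2:**
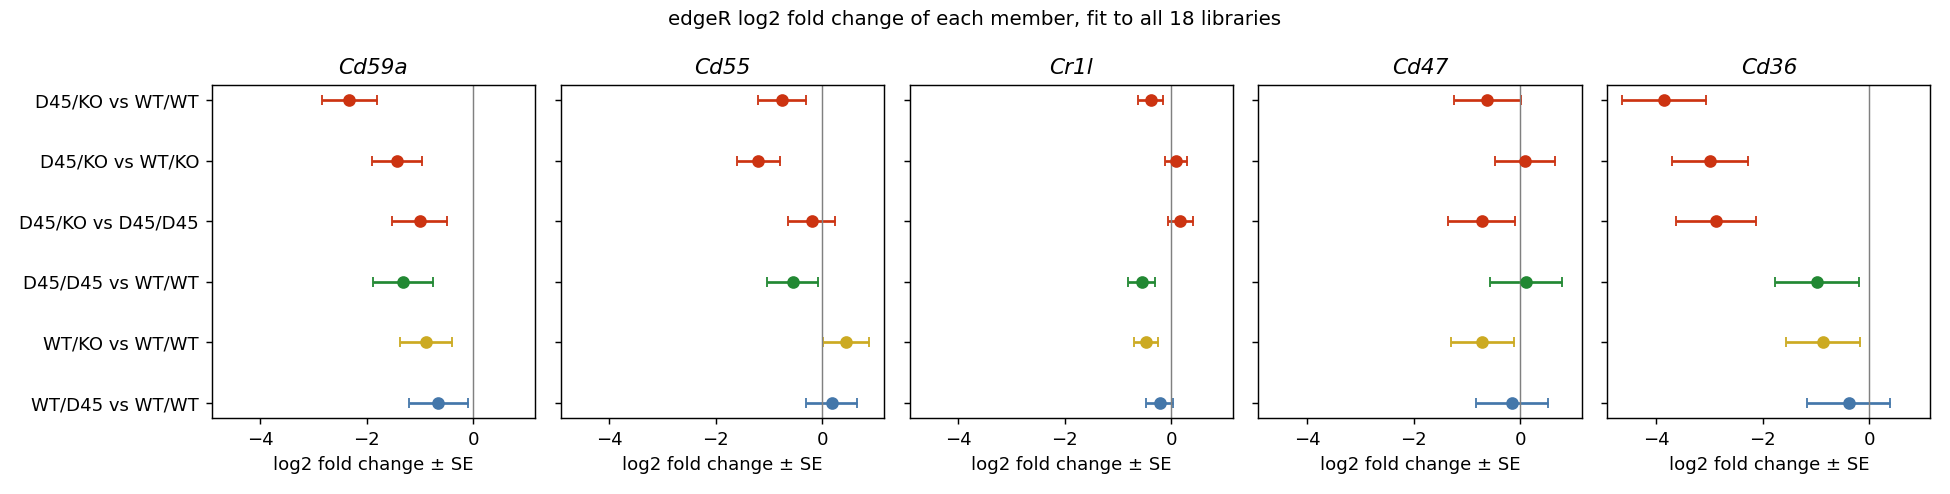
Log2 fold change of each gene (edgeR, points, with bars of 1 SE) in 6 comparisons of genotypes; the vertical line marks no difference. Cd36 lies between -3.85 and -2.87 in the 3 comparisons with D45/KO, Cd59a lies below 0 in all 6, and Cr1l and Cd47 lie between -0.72 and 0.17.

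Relative to other erythroid transcripts Cd36 set D45/KO apart from all other genotypes. Its counts were 8.98%, 10.2%, 16.7% and 7.21% of those of Cd47 in D45/KO, and 59.7%, 50.8% and 36.9% in D45/D45. Over the 14 libraries outside D45/KO they ran from 36.9% to 116%. No D45/KO library overlapped them, nor over Tfrc (1.43% to 3.03% against 7.93% to 31.5%). Of all genes tested, Cd36 among them, 0.381% lay lower in every D45/KO library over Cd47 and 0.597% over Tfrc. D45/D45 (36.9% to 59.7%) lay in the lower part of the range of libraries with a wild-type allele (53.7% to 116%) and below it, with replicate 1 overlapping. By the same ratio Cd59a did not separate D45/KO from D45/D45.

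**Figure D3:**
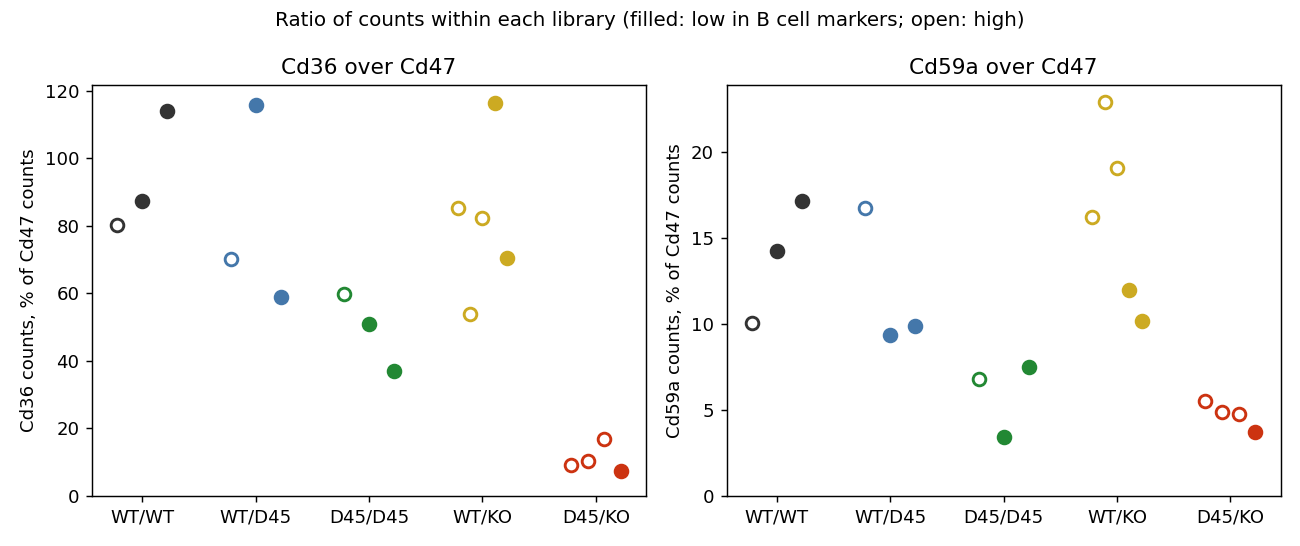
Counts of Cd36 (left) and Cd59a (right) as a percent of Cd47 counts in the same library, by genotype; filled points are libraries low and open points libraries high in B cell markers. Cd36 is at 7.21% to 16.7% in D45/KO and at 36.9% or more elsewhere, and Cd59a is at 7.49% or less in D45/KO and D45/D45 and at 9.35% or more elsewhere.

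The D45 allele was compared beside each partner allele by the interaction (D45/KO minus WT/KO, less WT/D45 minus WT/WT). Cd36 gave -2.60 ± 1.04 and Cd55 -1.38 ± 0.63 on the log2 scale. Cd59a gave -0.78 ± 0.71, Cr1l 0.30 ± 0.33 and Cd47 0.24 ± 0.88. Since this contrast contains D45/KO minus WT/KO, these values are a description. None of the 5 was called, and 0.00746% of all genes were. A single copy of D45 beside WT gave no call for any of the 5 genes by edgeR or DESeq2 (0 of 5 at an unadjusted p under 0.05, against 1.45% of all genes), with log2 fold changes from -0.66 for Cd59a to 0.18 for Cd55, and 0% of all genes were called. D45/D45 against WT/WT also gave 0 of 5 with edgeR (2 of 5 at an unadjusted p under 0.05, against 4.07% of all genes), 0% of all genes called, 1 of 5 with DESeq2 (Cr1l, with 0.507% of all genes called) and 1 of 5 in the low set alone (Cd59a, with 1.36%). With the replicate number as a block, 10 genes (0.0746%) were called in that comparison and still 0 of the 5.

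WT/KO against WT/WT is the comparison that the authors tabulated. Cd36 stood at -0.87 ± 0.69, Cd59a at -0.89 ± 0.48 and Cd47 at -0.71 ± 0.60 (adjusted p = 0.818 for each), and 0 of 5 genes and 0% of all genes were called (0 of 5 at an unadjusted p under 0.05, against 4.27% of all genes, and 0 of 5 with DESeq2, which called 0.142% of all genes). In the authors' deposited table, which takes WT/WT over WT/KO and so has the opposite sign, the log2 fold changes were 1.20 for Cd36, 0.98 for Cd47, 0.80 for Cd59a, 0.43 for Cr1l and -0.27 for Cd55. The adjusted p in the authors' deposited table was 0.853 for the first 4 and 0.874 for Cd55. In the high set alone Cd59a turned to 0.25. One KO allele beside WT was thus not told from WT/WT for any of the 5 genes.

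Other genes of these pathways were read from lists in D45/KO against WT/WT, where 0 genes of the 7 lists were called by edgeR. Of 7 tested complement regulators out of 13 listed, 6 lay below 0, with a median of -1.13 and 1 at an unadjusted p under 0.05, and the list leaves out Cd59a, Cd55 and Cr1l themselves. Cd46, a regulator confined largely to testis in mice, was at a mean of 1.25 CPM in D45/KO, beside 2.74 CPM in WT/WT. Of 14 tested complement components 10 lay above 0, with a median of 1.30 and 1 at an unadjusted p under 0.05, and of 8 complement receptors 6 lay above 0, with a median of 0.58 and 0 at that level. At that level stood 8.93% of all genes tested, and 54.2% lay above 0. Both lists turned on D45/KO replicate 2: without it 4 of 13 components and 4 of 8 receptors lay above 0, with medians of -0.54 and -0.24. C1qa, a macrophage product, had 17.5, 321, 54.9 and 11.8 CPM in D45/KO, beside 24.8, 43.4 and 59.0 CPM in WT/WT, so replicate 2 alone stood above WT/WT. C3, the protein on which the cascade turns, stood at -0.64. The 15 tested macrophage markers moved with the same library. They had a median of 1.33, with 12 above 0, and a median of -0.51, with 2 above 0, without D45/KO replicate 2. Their summed level was 159 to 3900 CPM in D45/KO (median 495 CPM), beside 416 to 924 CPM in WT/WT (median 440 CPM), with no marker at 0 throughout. Their part in the complement values was not tested.

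Genes of phagocyte recognition and phosphatidylserine exposure lay above 0 in 16 of 22 tested, with a median of 0.79 and 3 at an unadjusted p under 0.05 (8.93% of all genes). Without D45/KO replicate 2, 9 of 22 lay above 0, with a median of -0.11. Tmem30a, a chaperone of phospholipid transporters, stood at -0.31, the scramblase Xkr8 at -0.22 and Calr (calreticulin, a signal for uptake) at 0.13. Thbs1, whose product thrombospondin binds both CD47 and CD36, was at 2.61 to 8.96 CPM in D45/KO, whereas WT/WT libraries gave 0, 0 and 0.188 CPM, not called. Thbs1 is also a platelet gene. The 12 megakaryocyte and platelet markers summed to 440 to 828 CPM in D45/KO and 217 to 620 CPM in D45/D45, against 38.1 to 207 CPM in WT/WT, 48.1 to 176 CPM in WT/D45 and 60.2 to 265 CPM in WT/KO, and Itga2b alone gave 324 to 654 CPM of the D45/KO sums. Of the 10 tested markers 7 lay above 0 against WT/WT, with a median log2 fold change of 1.47. Against WT/KO 5 lay above and 5 below 0, with a median of 0.13. In each comparison 3 stood at an unadjusted p under 0.05 (edgeR) and 0 were called. Gp6 and Itga2b were higher in every D45/KO library than in WT/KO, at 3.45 and 2.64. Pf4, Ppbp and Itgb3 were among the 5 lower ones. They averaged 0.132, 0.251 and 3.07 CPM over the D45/KO libraries and 0.362, 0.863 and 14.5 CPM over those of WT/KO. Cd36 is itself made by platelets, and the part of these cells in its values was not tested.

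Lipid handling genes beside Cd36 lay above 0 in 16 of 23 tested, with a median of 0.28 and 4 at an unadjusted p under 0.05 (8.93% of all genes), and 10 of 22 did so without D45/KO replicate 2, with a median of -0.04. Scarb1, a relative of Cd36 that takes up lipoprotein cholesterol, was higher in every D45/KO library than in WT/WT, at 71.4 ± 14.2 CPM (SD, n = 4) against 40.1 ± 2.24 CPM (SD, n = 3), a log2 fold change of 0.83 ± 0.26, in a position shared by 6.69% of all genes. Fabp5, a fatty acid carrier, was at 21.4 ± 9.08 CPM (SD, n = 4) against 5.14 ± 3.73 CPM (SD, n = 3), at 2.07 ± 0.83. Neither was called. Acsl6, an acyl-CoA synthetase of erythroid cells, stood at 0.71 and Pparg, a regulator of Cd36 in other cells, at 0.17. The members of the late erythroblast list lay below 0 in 9 of 10, with a median of -0.89 and a summed level of 16768 to 37784 CPM in D45/KO, beside 9352 to 100633 CPM in WT/WT. The sets differed in direction. In the high set every D45/KO library lay above the single WT/WT library at 9352 CPM. In the low set the single D45/KO library, at 37784 CPM, lay below the WT/WT libraries at 54872 and 100633 CPM. The part of erythroblast stage in the levels of Cd36 and Cd59a was not tested.

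The genes whose pattern over the 18 libraries lay closest to each of the 5 were found among 9083 others by the root mean square difference of log2 CPM after centring each gene on its mean. Slc1a5, a glutamine transporter, was closest to Cd36 at 0.42, before Slc2a4 (the glucose transporter GLUT4) at 0.50 and Ttc39a at 0.52. Slc1a5 averaged 27.6 ± 6.46 CPM in D45/KO (SD, n = 4), against 495 ± 243 CPM in WT/WT (SD, n = 3), and Slc2a4 9.38 ± 4.05 and 107 ± 38.3 CPM. Like Cd36, both were called lower there, which the choice by likeness leads toward. Cd59a was nearest to Ogfrl1 (0.32), Ost4 (0.34), a subunit of the oligosaccharyltransferase, and Pik3r1 (0.40), a regulatory subunit of PI3 kinase. Cd47 had the closest neighbours of all, Ccdc77 (0.13), Tspan33 (0.13), a tetraspanin of erythroid progenitors, and Nusap1 (0.15), a spindle protein. Cd55 was nearest to Tmem206 (0.37), Zbtb18 (0.38) and Tnfaip8 (0.39), and Cr1l to Inpp5b (0.20), Capns1 (0.20) and Srsf11 (0.22), where the small variation of Cr1l itself keeps the differences small.

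**Figure D4:**
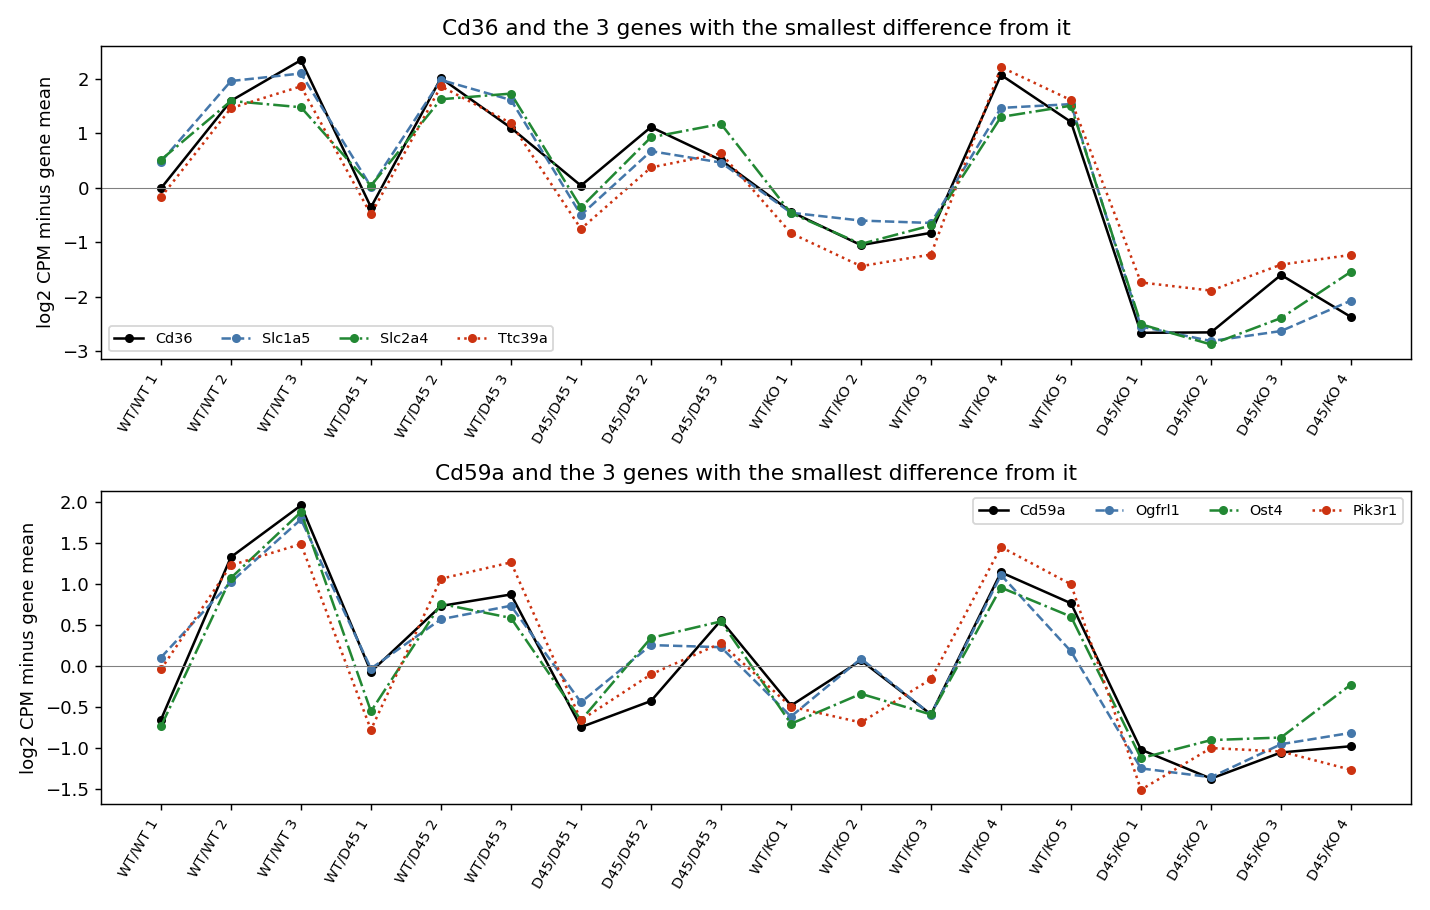
Log2 CPM minus each gene's mean over the 18 libraries, for Cd36 (upper) and Cd59a (lower) with the 3 nearest genes of each; lines join the libraries of a gene only to guide the eye and replicates have no order. Slc1a5, Slc2a4 and Ttc39a drop with Cd36 in all 4 D45/KO libraries, and Ogfrl1, Ost4 and Pik3r1 lie below their means with Cd59a in D45/KO.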

How the data were processed

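RNA from sorted spleen erythroblasts was extracted with Trizol and made into libraries with the Swift Rapid kit, per the labels' protocols. HISAT2, featureCounts, limma and mm9 are named in the submitters' processing notes, without versions or roles, and these sources do not say if counting used strand. The authors deposited raw counts per gene symbol for 23365 rows. The authors' deposited second table holds counts and CPM of the genes they kept, a log2 fold change of WT/WT over WT/KO, an average log2 expression, and p-values and adjusted p-values; only its fold changes and adjusted p-values are printed.

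The tests used edgeR 4.0.16 (R 4.3.3) on the deposited raw counts: filterByExpr by genotype, TMM, and a quasi-likelihood fit of genotype to all 18 libraries, with Benjamini-Hochberg adjustment over 13405 genes and calls under 0.05. An SE is the absolute log2 fold change over the square root of F, and is approximate. CPM was scaled by the TMM-adjusted size of the library, with 2 as prior count on the log2 scale. The script was tested on simulated data. Alternatives were DESeq2 1.42.0, voom in limma 3.58.1, other scalings, filters and covariates, and omission of each library. B cell marker sets were split at the widest gap of their mean log2 CPM. All 7 mice with an identifier under 200 were in the high set; the labels do not call it a batch. The series text calls replicates biological; p-values measure the spread between these libraries.

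Same-numbered libraries deviated together in D45/D45 against WT/WT (correlations of 0.71, 0.35 and 0.19) and in WT/D45 against WT/WT (0.71, 0.22 and 0.12), so a replicate block was fitted. In these genotypes only replicate 1 was high in B cell markers, so these correlations cannot tell pairing from that split. Replicate 3 did not match its own number best in either comparison, and the labels give no pairing. Promoters of 5 of 5 genes were matched by symbol in a RefSeq table, and the 5 genes and all lists were chosen with earlier results of these data known. Named beside them were Klf1, the close copies, a set list of pathway genes (some not reported here), called pathway genes, leading markers and the 3 nearest genes to each (mean of at least 2 CPM).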

Additional observations from a re-analysis of the deposited data

How the results depend on the processing

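Of the values that leave out 1 library, 269 kept direction and side of the threshold, 14 turned sign, 6 lost and 1 gained a call; under all other settings 369, 22, 1 and 23 did. In D45/KO against WT/WT 2 of the 5 genes (Cd59a and Cd36) were called in place of 1 with DESeq2, DESeq2 size factors in edgeR, robust dispersion, the replicate block, the mouse identifier as a covariate, a B cell marker covariate and the low B cell marker libraries alone, and 0 with the high ones alone; the range was 0 to 2 when leaving out 1 library. In D45/KO against WT/KO 2 in place of 0 were called with DESeq2, the B cell marker covariate, the low set (Cd59a and Cd36 in each) and the high set (Cd47 and Cd36), and 1 (Cd36) with library totals in place of TMM, a setting chosen after seeing the data. In D45/KO against D45/D45 1 in place of 0 (Cd36) was called with DESeq2, library totals, the B cell marker covariate and the low set, and in D45/D45 against WT/WT 1 with DESeq2 (Cr1l) and with the low set (Cd59a). The interaction gave 1 in the low set (Cd36). The causes were not tested. Over all genes tested, the settings other than omissions called 0 to 18 genes in D45/KO against D45/D45 and 0 to 23 in the interaction. The fit to all libraries called 1 gene in each. Those settings called 10 to 560 genes in D45/KO against WT/WT and 6 to 1103 in D45/KO against WT/KO. Genes called over all tested in D45/KO against WT/WT went from 83 to 421 with DESeq2, 560 with the B cell marker covariate, 322 in the low and 10 in the high set, and in D45/KO against WT/KO from 23 to 185, 400, 46 and 1103.

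Sign changes were seen for each of the 5 genes, and not only where values were small. With library totals, log2 fold changes against WT/WT became 0.066 (Cr1l) and 0.22 (Cd47) in D45/KO, 0.082 (Cd59a), 0.096 (Cr1l), 0.28 (Cd47) and 0.048 (Cd36) in WT/D45 and 0.064 (Cr1l) in WT/KO, with 0.16 for Cd55 in D45/KO against D45/D45 and -0.094 for Cr1l in the interaction; this scaling moved the median of all genes by 0.30 in D45/KO, 0.21 in WT/D45 and 0.38 in WT/KO against WT/WT. DESeq2 and its size factors in edgeR gave -0.023 and -0.018 for Cr1l in D45/KO against WT/KO and -0.0259 (both) for Cd47 in D45/D45 against WT/WT, where those size factors moved the median of all genes by -0.12 and -0.11. The high set gave 0.45 for Cd47 in D45/KO and 0.60 for Cd59a and -0.43 for Cd55 in WT/D45 against WT/WT, 0.25 for Cd59a in WT/KO against WT/WT and 0.039 for Cd47 in D45/KO against D45/D45. The low set gave -0.32 for Cd47 in D45/KO against WT/KO, -0.018 for Cd47 in D45/D45 and -0.17 for Cd55 in WT/KO against WT/WT, and -0.12 for Cd47 in the interaction. Leaving out 1 library, Cd47 ran from -0.12 to 0.48 in D45/KO against WT/KO, -0.27 to 0.48 in D45/D45 against WT/WT, -0.53 to 0.22 in WT/D45 against WT/WT and -0.13 to 0.63 in the interaction, Cd36 from -1.05 to 0.21 in WT/D45 against WT/WT and Cd55 from -0.82 to 0.11 in D45/KO against D45/D45. With the replicate block no call among the 5 genes changed other than that of Cd59a in D45/KO against WT/WT, where the numbers did not pair the libraries (same-number correlations of 0.36, -0.31 and 0.04). Leaving out libraries for the gene lists, and the B cell marker levels within each set, were chosen after seeing the data. The 5 genes had at least 95 counts in every library.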

Other observations

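Complement components and macrophage markers lay mostly below WT/WT in D45/D45, and in WT/D45 as well. In D45/D45 against WT/WT 13 of 14 tested components and 15 of 15 macrophage markers lay below 0, with median log2 fold changes of -1.06 and -1.06 beside 0.01 for all genes tested. The medians ran from -1.60 to -0.75 and from -1.60 to -0.72 when 1 library was left out. edgeR called 0 genes of these lists, and 0 of either stood at an unadjusted p under 0.05, as did 4.07% of all genes. WT/D45 against WT/WT gave 10 of 14 components and 14 of 15 macrophage markers below 0. The medians there were -0.94 and -0.90, beside 0.10 for all genes tested, so the shift was not particular to D45/D45. In D45/KO against D45/D45 11 of 14 components and 14 of 15 macrophage markers lay above 0, with medians of 2.23 and 2.55, 0 called, and 5 and 10 at an unadjusted p under 0.05 (2.26% of all genes). The size of this difference rested on D45/KO replicate 2: without it 11 of 13 and 13 of 15 lay above 0, with medians of 0.79 and 0.66 and 0 of either at that level. C1qa, with the other C1q genes, stands in both lists, so the lists are not separate evidence. In the same comparison all 8 tested membrane partners of CD47 lay below 0, with a median of -0.48 and 0 at an unadjusted p under 0.05. The median ran from -0.83 to -0.27 when 1 library was left out, with 6 to 8 below 0. Cd47 itself stood at -0.72 ± 0.63.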
